A study of Homo sapiens with 6 samples.

Results

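The DNA replication licensing and fork genes are a set of 56 named genes for origins, helicases, polymerases, the sliding clamp, single-strand binding, Okazaki fragment processing, nucleotide supply and fork protection, taken by symbol from a table of 59565 loci. All 56 were found once in the table, and all 56 passed the filter on low counts that left 19029 genes to be tested. The least counted member in a group was CCNE2, with 330 counts over the Enz-R libraries. RNA-seq had been done on an enzalutamide-resistant line labelled C4-2 Enz-R (3 libraries) and on the C4-2 parental line (3 libraries). C4-2 descends from the LNCaP line of human prostate cancer, and enzalutamide is a drug used to treat this cancer. No genotype, dose, passage or culture is given in the labels, nor whether Enz-R is a single clone, whether its cells were in enzalutamide at collection, or whether the 3 libraries of a group came from separate cultures. The p-values therefore rest only on how far these libraries spread, and that spread may be technical.

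Replication is prepared in G1, when the origin recognition complex (ORC), CDC6 and CDT1 load rings of the MCM2-7 helicase onto DNA, a step called licensing. In S phase the kinases CDC7 and CDK2 turn the loaded rings into active forks with CDC45 and GINS. Transcription of many of these genes rises as cells pass from G1 into S phase under E2F factors, which the RB family restrains, so their level in a culture moves with its share of cycling cells. In bulk libraries such as these, fewer cells in S phase and less RNA per S phase cell cannot be told apart.

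Counts per library totalled 15673404 to 23351394 in the Enz-R group and 19400321 to 28247038 in the parental group. Levels are in CPM, counts divided by library size after TMM scaling. Changes are given on the log2 scale, Enz-R divided by parental, with the SE from edgeR's quasi-likelihood test. A gene is called at an adjusted p (Benjamini-Hochberg over all 19029 genes) under 0.05. Luminal prostate markers were high in both groups, with KLK3 at 2533 CPM in Enz-R and 4768 CPM in parental cells. Of the markers of other cell types, KRT5, DCN, LUM, PECAM1, CDH5, PTPRC and CD3E had at most 6 counts over either group, and HBB had 0. Others were detected. COL1A1 of the fibroblast list had 46.8 CPM in Enz-R and 54.8 CPM in parental cells, and PDGFRB had 4.71 and 4.95 CPM. TP63 of the basal list had 3.18 CPM in Enz-R and 3.52 CPM in parental cells, and KRT14 had 0 and 47 counts. VWF of the endothelial list had 0.651 CPM in Enz-R and 5.21 CPM in parental cells. Summed over lists, 4 endothelial markers gave 3.11, 2.94 and 3.43 CPM in the Enz-R libraries, against 7.31, 8.81 and 9.76 CPM in the parental libraries, and 6 blood cell markers gave 2.83, 2.53 and 2.01 CPM in the Enz-R libraries, against 3.62, 2.80 and 3.32 CPM in the parental libraries. Mitochondrial genes took 14.5% to 15.5% of the counts in Enz-R and 8.78% to 11.3% in parental libraries, and the counts of members called were the same with these genes left out.

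Replication genes were mostly lower in Enz-R cells. Of the 56 genes, 38 were called lower, 5 higher and 13 were not called, and the median log2 fold change was -0.39, against 0.011 over all genes tested. Among all genes tested 32.3% were called lower and 32.4% higher. At least 2-fold falls were called for 6 of the 56 members (MCM2, CLSPN, RRM1, MCM8, CCNE2 and ORC1), a share near the 8.66% of all genes. No member had a called 2-fold rise, where 2095 of all 19029 genes tested had one. The 3 Enz-R libraries did not overlap the 3 parental libraries for 39 of the 56, a share close to the 68.9% of all genes tested. Leaving out 1 library at a time gave 33 to 39 members lower, and 3 to 7 higher. Without Enz-R replicate 3 the count of higher members was 3, as it was without parental replicate 1.

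**Figure D1:**
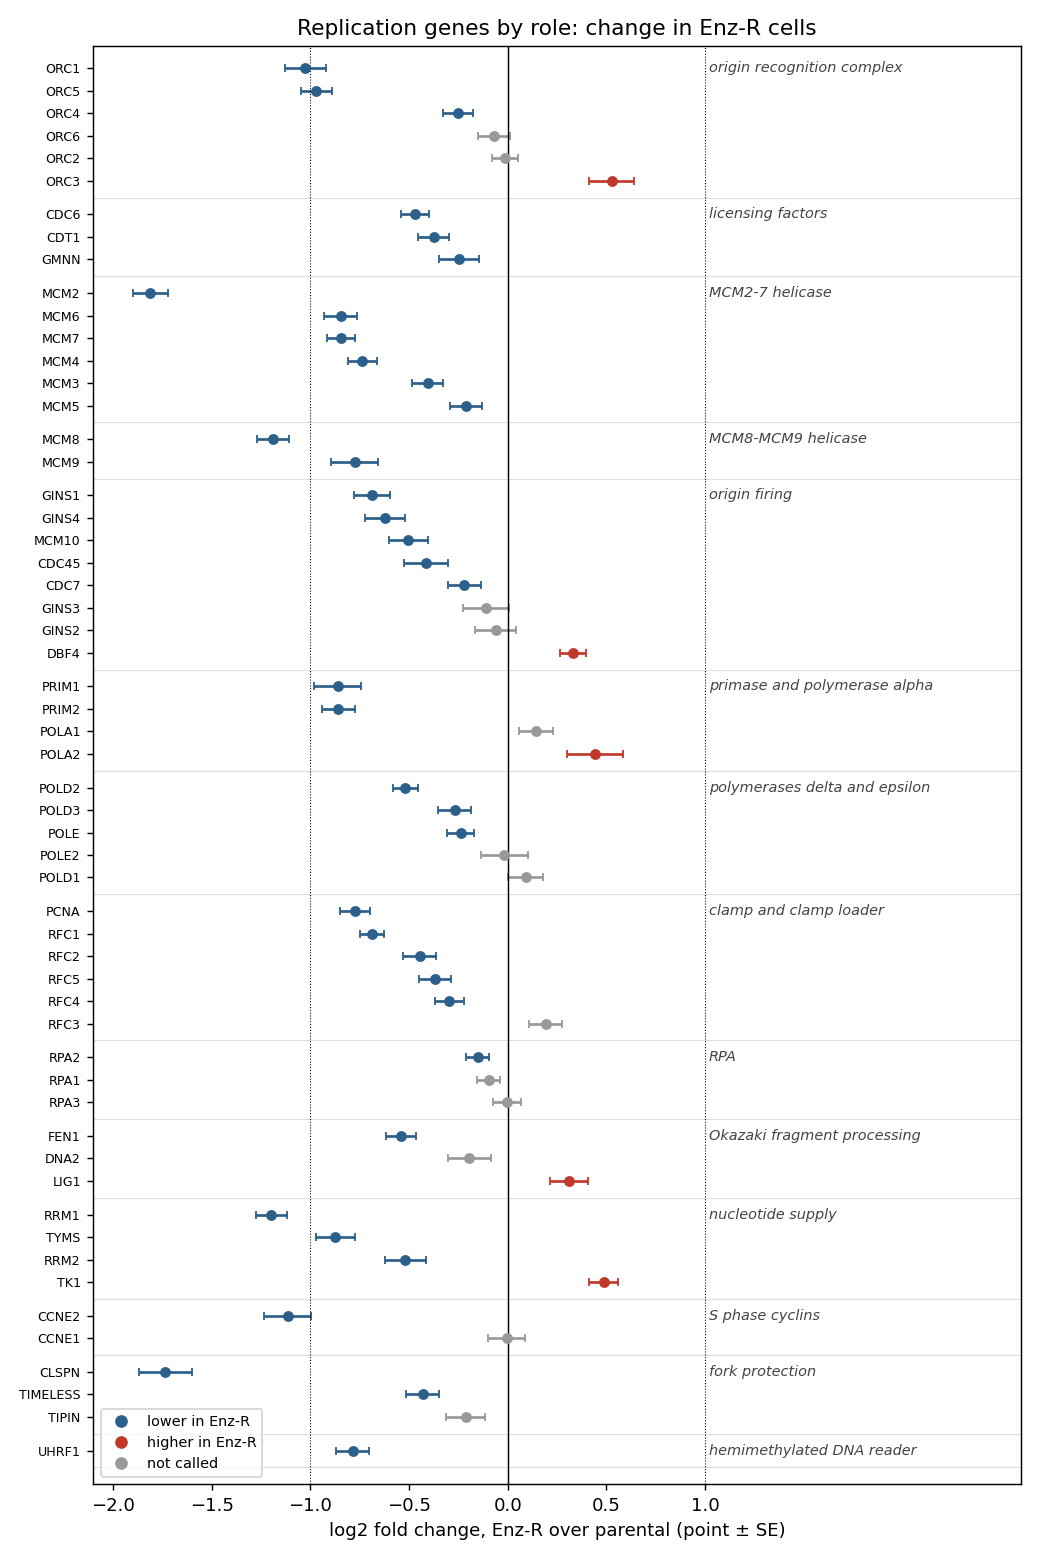
Log2 fold change of Enz-R over parental cells (x axis, point ± SE from the edgeR fit, n = 3 libraries per group) for the 56 replication genes, in blocks by role with the name of the role at the right. Blue points are genes called lower, red points genes called higher and grey points genes not called; the dotted lines mark 2-fold changes, which 6 genes exceed on the lower side.

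The genes of the MCM2-7 helicase, the motor that unwinds DNA at the fork, were all called lower, 6 of 6. MCM2 (ENSG00000073111, chromosome 3, 127598223 to 127622436), a subunit that also binds histones, had 25.1, 28.5 and 23.6 CPM in the Enz-R libraries, against 80.9, 91.1 and 99.5 CPM in the parental libraries. Its Enz-R libraries all lay far below the parental ones, and its log2 fold change of -1.81 ± 0.088 (adjusted p = 1.62e-10) was the largest fall of the 56. MCM7 had 139.9, 146 and 135 CPM in the Enz-R libraries, against 226, 270.0 and 261 CPM in the parental libraries. Again the groups were apart, by -0.84 ± 0.072 (adjusted p = 8.14e-08). MCM6 (-0.85 ± 0.084) and MCM4 (-0.74 ± 0.074) fell by a like amount and MCM3 (-0.41 ± 0.078) by less. MCM5 fell least (-0.21 ± 0.080, adjusted p = 0.0298), with overlapping groups, and was no longer called when a single library was left out (adjusted p = 0.0650 without Enz-R replicate 1, 0.104 without Enz-R replicate 3 and 0.166 without parental replicate 2). The summed level of the 6 genes was 413, 452 and 419 CPM in the Enz-R libraries, against 649, 772 and 748 CPM in the parental libraries.

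The make-up of the helicase transcripts differed between the groups, with a smaller share of MCM2 and larger shares of MCM3 and MCM5 in Enz-R. Per kb of exon, MCM2 took 5.84% ± 0.376 in Enz-R, against 12.1% ± 0.709 in parental libraries (SD, n = 3 each), as a share of the summed level of the 6 genes. MCM3 took 28.1% ± 2.27 in Enz-R, against 22.0% ± 0.387 in parental libraries, and MCM5 8.76% ± 0.367 in Enz-R, against 6.01% ± 0.293 in parental libraries. In both groups MCM7 held the largest share, 35.7% ± 1.23 in Enz-R, against 37.8% ± 0.164 in parental libraries. Among all 56 genes ordered by level per kb, MCM2 stood at rank 39 in Enz-R and at rank 14 in parental cells. An antisense RNA shares 22.7% of the exon bases of MCM2 but had only 4.08 CPM in Enz-R and 5.93 CPM in parental cells.

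**Figure D2:**
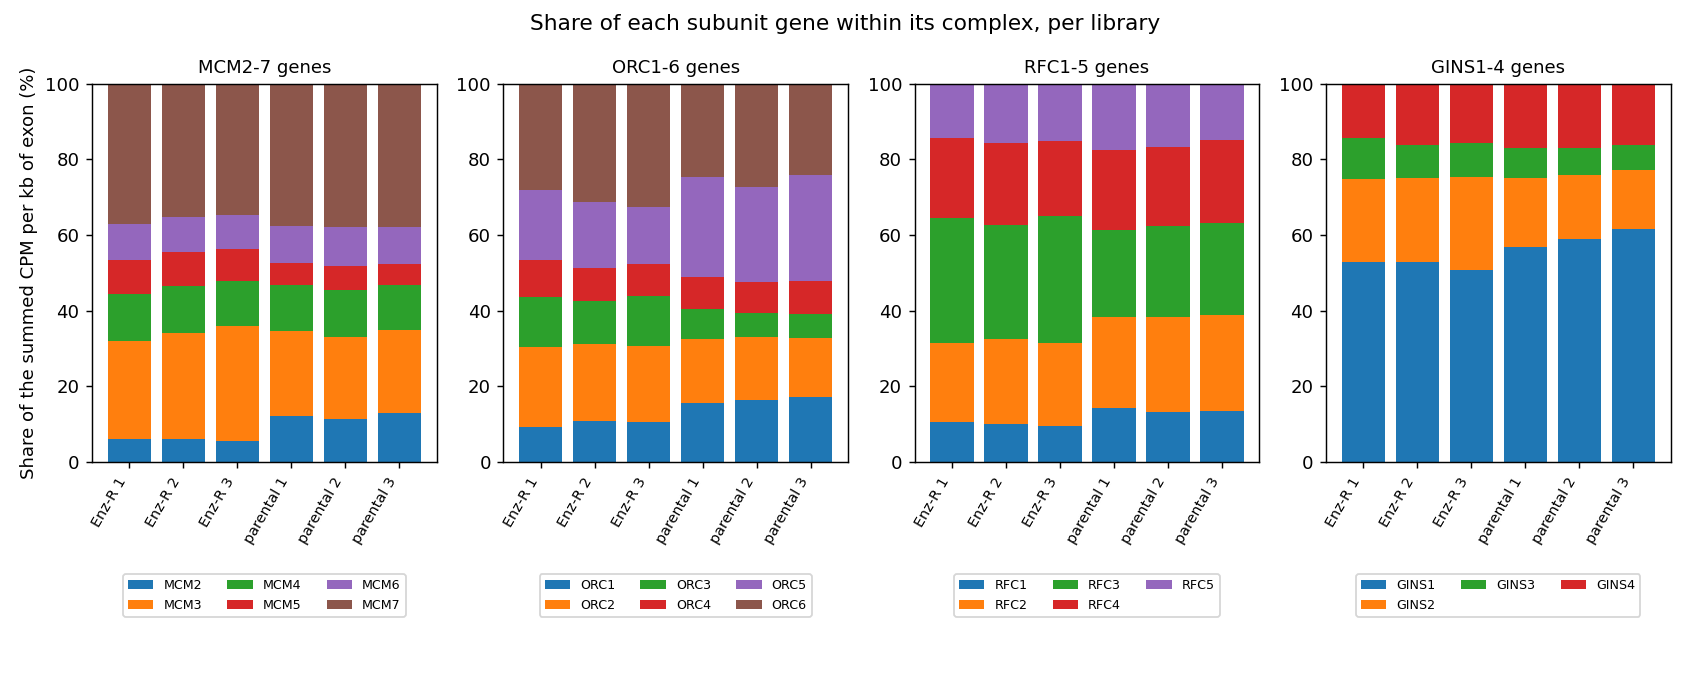
Share of each subunit gene in the summed CPM per kb of exon of its complex (y axis, percent), for the 3 Enz-R and then the 3 parental libraries (x axis), in 4 complexes. MCM2 (lowest block of the left panel) takes 5.84% in Enz-R and 12.1% in parental libraries, and ORC3 takes 12.6% and 6.90% in the same order.

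MCM8 and MCM9, which form a separate helicase of homologous recombination, both fell. MCM8 (ENSG00000125885, chromosome 20, 5950652 to 5998977) had 15.8, 18.6 and 15.9 CPM in the Enz-R libraries, against 36.6, 38.3 and 39.7 CPM in the parental libraries. Every Enz-R value was under that of any parental library (log2 fold change -1.19 ± 0.082, adjusted p = 8.27e-09). MCM9 fell by 0.78 ± 0.12 on the log2 scale. The 20 tested protein-coding genes nearest to MCM8 had a median log2 fold change of -0.73, lower than around any other member except PCNA, and TRMT6, which starts 94 bases away on the other strand, stood at -0.79 ± 0.12. The part of this region in the fall of MCM8 was not tested.

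Promoter windows, from 250 bases before to 50 bases after the start of a gene, were taken from RefSeq (GRCh38.p14) and were matched for 48 of the 56 genes; CCNE2, DNA2, GINS4, MCM4, MCM5, POLD3, RPA2 and RPA3 were not matched. Each was searched on both strands for the E2F-type words TTTCCCGC, TTTCGCGC, TTTGCCGC and TTTGGCGC, which can overlap each other. At least 1 of the 4 words was found in 21 of the 48 windows (43.8%), against 3.31% of the 35116 windows of the table and 4.71% of the 17288 windows of genes tested here. Members with and without a word had like medians. Of the 21 genes with a word 13 were lower and 3 higher (median log2 fold change -0.41). Of the 27 without, 19 were lower and 2 higher (median -0.42). Windows without a word, such as those of ORC1, RFC1, CDC45 and MCM10, can hold a stretch that differs from a word by a single base. The medians therefore compare exact words only, not all E2F sites. The pentamer CCAAT, searched in the same way, was in 28 of 48 member windows (58.3%) against 34.6% of all windows and 34.6% of those of tested genes, with medians of -0.51 in members with it and -0.23 in the 20 without. GGGCGG, the GC box, was in 72.9% of member windows, against 44.95% of all windows and 64.5% of those of tested genes. TTTGAA, found in many promoters of mitotic genes, was in 4.17% of member windows, against 15.2% of all and 10.3% of those of tested genes.

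The windows of 3 helicase genes that fell and of 2 members that rose are shown 5′ to 3′ on the strand of the gene, since both sets hold E2F-type words, which are in capitals. MCM2 (chr3:127598161-127598460, plus strand) has 2 overlapping words just after the start, MCM6 (chr2:135876394-135876693, minus strand) 2 overlapping pairs and MCM7 (chr7:100101348-100101647, minus strand) 2 separate words; POLA2 (chr11:65261712-65262011, plus strand) and LIG1 (chr19:48170295-48170594, minus strand), which are described further on, have 1 each.
MCM2: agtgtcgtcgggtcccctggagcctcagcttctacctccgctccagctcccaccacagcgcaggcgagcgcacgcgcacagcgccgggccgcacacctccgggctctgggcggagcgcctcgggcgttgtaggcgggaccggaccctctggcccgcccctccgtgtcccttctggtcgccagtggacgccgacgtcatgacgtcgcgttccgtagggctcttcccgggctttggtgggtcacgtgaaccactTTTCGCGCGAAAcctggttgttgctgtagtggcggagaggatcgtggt
MCM6: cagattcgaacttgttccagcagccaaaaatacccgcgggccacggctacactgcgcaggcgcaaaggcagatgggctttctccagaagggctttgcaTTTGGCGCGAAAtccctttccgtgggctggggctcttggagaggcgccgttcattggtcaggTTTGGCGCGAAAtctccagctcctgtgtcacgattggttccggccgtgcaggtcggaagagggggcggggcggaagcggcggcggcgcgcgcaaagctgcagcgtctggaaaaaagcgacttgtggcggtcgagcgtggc
MCM7: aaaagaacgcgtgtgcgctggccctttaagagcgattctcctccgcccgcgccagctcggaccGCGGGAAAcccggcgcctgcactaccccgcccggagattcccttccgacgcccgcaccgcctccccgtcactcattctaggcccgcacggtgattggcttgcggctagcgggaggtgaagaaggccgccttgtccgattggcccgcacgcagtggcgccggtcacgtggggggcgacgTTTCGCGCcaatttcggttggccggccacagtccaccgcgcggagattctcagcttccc
POLA2: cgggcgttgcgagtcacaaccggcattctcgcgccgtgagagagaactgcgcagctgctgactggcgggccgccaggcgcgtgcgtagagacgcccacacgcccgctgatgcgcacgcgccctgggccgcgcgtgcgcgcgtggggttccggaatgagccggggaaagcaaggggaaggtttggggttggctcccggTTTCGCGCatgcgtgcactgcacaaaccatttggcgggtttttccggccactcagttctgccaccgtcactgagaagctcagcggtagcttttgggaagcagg
LIG1: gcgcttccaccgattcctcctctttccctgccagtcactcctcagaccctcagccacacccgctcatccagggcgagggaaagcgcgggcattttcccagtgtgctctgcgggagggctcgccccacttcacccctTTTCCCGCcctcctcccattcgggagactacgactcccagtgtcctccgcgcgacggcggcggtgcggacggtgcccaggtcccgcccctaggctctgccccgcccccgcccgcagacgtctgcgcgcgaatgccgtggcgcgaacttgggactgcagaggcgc

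Genes of the origin recognition complex, which marks the sites where helicases are loaded, went both ways: 3 of 6 were lower, 1 higher and 2 not called. ORC1 (ENSG00000085840, chromosome 1, 52372829 to 52404459), the ATPase subunit, had 9.64, 11.4 and 11.5 CPM in the Enz-R libraries, against 20.3, 22.5 and 23.2 CPM in the parental libraries. The Enz-R libraries held about the same low level and none reached a parental one (log2 fold change -1.03 ± 0.10, adjusted p = 4.30e-07). ORC5 fell to nearly the same degree (-0.97 ± 0.078, adjusted p = 4.43e-08). ORC3 rose, with 16.3, 14.1 and 16.6 CPM in the Enz-R libraries, against 12.3, 10.2 and 10.01 CPM in the parental libraries. Its log2 fold change of 0.53 ± 0.11 (adjusted p = 0.000811) was the largest rise of the 56. ORC2 (-0.013 ± 0.066) and ORC6 (-0.069 ± 0.080) were not called, although ORC2 was called higher, at 0.16 (adjusted p = 0.0446), with GC content and length regressed out. ORC4 was called lower (-0.25 ± 0.075, adjusted p = 0.00827), but stood at 0.015 (adjusted p = 0.862) after correction for GC content and length. Of the summed level per kb of the 6 genes, ORC1 took 10.2% ± 0.905 in Enz-R, against 16.4% ± 0.860 in parental libraries, ORC5 17.0% ± 1.65 in Enz-R, against 26.5% ± 1.30 in parental libraries, and ORC3 12.6% ± 1.04 in Enz-R, against 6.90% ± 0.995 in parental libraries (SD, n = 3 each).

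All 3 licensing factors were called lower, by small amounts. CDC6, the loader ATPase, had 40.3, 41.2 and 42.6 CPM in the Enz-R libraries, against 52.6, 60.9 and 58.7 CPM in the parental libraries. Enz-R values lay within a narrow range below the parental ones (-0.47 ± 0.070, adjusted p = 2.75e-05). CDT1, its partner in loading, had 46.5, 58.2 and 58.4 CPM in the Enz-R libraries, against 70.8, 71.2 and 69.0 CPM in the parental libraries. The groups did not overlap (-0.38 ± 0.080, adjusted p = 0.000762). GMNN encodes geminin, the inhibitor that binds CDT1 to block further loading in the same cycle, and had 25.9, 33.1 and 34.8 CPM in the Enz-R libraries, against 34.4, 41.5 and 35.1 CPM in the parental libraries. Here the groups overlapped, and the value of -0.25 ± 0.10 (adjusted p = 0.0454) was no longer called without any of 4 libraries (adjusted p = 0.241 without Enz-R replicate 1, 0.0541 without Enz-R replicate 2, 0.210 without parental replicate 2 and 0.0506 without parental replicate 3). Of the summed level per kb of CDT1 and GMNN, CDT1 took 56.4% ± 0.852 in Enz-R, against 58.6% ± 2.29 in parental libraries (SD, n = 3 each), so the groups overlapped in the balance of the pair.

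Among 8 genes of origin firing, 5 were lower, 1 higher and 2 not called. GINS1, a subunit of the GINS complex that joins CDC45 and MCM2-7 in the active helicase, had 42.8, 44.9 and 43.4 CPM in the Enz-R libraries, against 58.7, 78.1 and 74.8 CPM in the parental libraries. It fell clear of the parental range (-0.69 ± 0.091, adjusted p = 8.58e-06). GINS4 (-0.62 ± 0.10), MCM10 (-0.50 ± 0.097), an activator of the loaded helicase, and CDC45 (-0.42 ± 0.11) also fell, while GINS2 (-0.061 ± 0.10) and GINS3 (-0.11 ± 0.12) were not called. The subunits of the firing kinase had opposite signs. DBF4, the activating subunit, had 52.2, 54.2 and 58.2 CPM in the Enz-R libraries, against 41.8, 44.0 and 45.1 CPM in the parental libraries. That rise held all Enz-R libraries above the parental ones (0.33 ± 0.067, adjusted p = 0.000466). CDC7, the catalytic subunit, was lower (-0.22 ± 0.083, adjusted p = 0.0305) with overlapping groups, and was not called without any of 4 libraries (adjusted p = 0.148 without Enz-R replicate 1, 0.0624 without Enz-R replicate 2, 0.0923 without parental replicate 2 and 0.109 without parental replicate 3).

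The genes of the primase and polymerase alpha complex, which lays down the primers, differed between enzymes. Both primase subunits fell. PRIM1, the catalytic subunit, had 11.8, 17.2 and 15.7 CPM in the Enz-R libraries, against 24.6, 26.6 and 29.5 CPM in the parental libraries. PRIM2 fell by the same amount (-0.86 ± 0.083 against -0.86 ± 0.12 for PRIM1; adjusted p = 3.29e-07 and 1.38e-05). POLA2, the accessory subunit of polymerase alpha, had 11.4, 14.5 and 17.9 CPM in the Enz-R libraries, against 10.1, 11.7 and 10.2 CPM in the parental libraries. Its groups overlapped, and its rise of 0.44 ± 0.14 (adjusted p = 0.0129) was lost without either of 2 libraries (adjusted p = 0.0785 without Enz-R replicate 3 and 0.0544 without parental replicate 1). POLA1, the catalytic subunit of polymerase alpha, was not called (0.14 ± 0.086, adjusted p = 0.160), but was called higher, at 0.35 (adjusted p = 0.00198), with GC content and length regressed out. A gene on the same strand shares 35.1% of the exon bases of POLA2, so its reads may be divided.

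Of 5 genes of the polymerases that copy the strands, 3 were lower and none higher. POLD2, an accessory subunit of polymerase delta, had 177, 184 and 163 CPM in the Enz-R libraries, against 248, 249 and 254 CPM in the parental libraries. It was the member with the most counts, and its groups were well apart (-0.52 ± 0.062, adjusted p = 3.26e-06). POLE, the catalytic subunit of polymerase epsilon, had a value of -0.24 ± 0.070 (adjusted p = 0.00759), which came to -0.032 (adjusted p = 0.692) with GC content and length regressed out. POLD3 (-0.27 ± 0.084) was called lower, but not without parental replicate 2 (adjusted p = 0.0597). POLD1 (0.091 ± 0.090), the catalytic subunit of polymerase delta, and POLE2 (-0.016 ± 0.12), an accessory subunit of polymerase epsilon, were not called, although POLD1 was called higher without Enz-R replicate 1 (adjusted p = 0.00786).

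PCNA and most of its loader fell, 5 of 6 genes. PCNA (ENSG00000132646, chromosome 20, 5114953 to 5126626), the ring that holds polymerases on DNA, had 78.9, 83.6 and 96.0 CPM in the Enz-R libraries, against 138, 159 and 145 CPM in the parental libraries. Each Enz-R value was below each parental one (-0.77 ± 0.077, adjusted p = 4.43e-07). The 20 tested protein-coding genes nearest to PCNA had a median of -0.92, and CDS2, which starts 160 bases away on the other strand, stood at -1.02 ± 0.066; the part of this region in the fall of PCNA was not tested. RFC1, the large subunit of the loader, fell by 0.69 ± 0.060 on the log2 scale, and RFC2 (-0.45 ± 0.084), RFC5 (-0.37 ± 0.081) and RFC4 (-0.30 ± 0.072) by less. RFC5 shares 5.70% of its exon bases with WSB2 on the other strand, which stood at -1.10 ± 0.068. RFC3 was not called (0.19 ± 0.083, adjusted p = 0.0537), but was called higher when some libraries were left out (adjusted p = 0.0179 without Enz-R replicate 1 and 0.0346 without Enz-R replicate 2). Its share of the summed level per kb of the 5 loader genes was 32.3% ± 2.02 in Enz-R, against 23.7% ± 0.733 in parental libraries (SD, n = 3 each).

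The 3 genes of RPA, which coats single-stranded DNA, had small differences. RPA2 had 66.5, 66.1 and 65.4 CPM in the Enz-R libraries, against 71.0, 72.1 and 77.1 CPM in the parental libraries. Its groups lay apart, yet the call on a fall of 0.15 ± 0.060 on the log2 scale (adjusted p = 0.0372) was lost without any of 4 libraries (adjusted p = 0.0859 without Enz-R replicate 2, 0.0867 without Enz-R replicate 3, 0.0566 without parental replicate 2 and 0.139 without parental replicate 3). RPA1 (-0.097 ± 0.058) and RPA3 (-0.0033 ± 0.071) were not called.

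Okazaki fragment genes had opposite signs. FEN1, the nuclease that trims flaps between lagging strand fragments, had 47.1, 45.5 and 47.0 CPM in the Enz-R libraries, against 60.3, 71.0 and 72.1 CPM in the parental libraries. Its level was lower in every Enz-R library (-0.54 ± 0.074, adjusted p = 1.23e-05). LIG1, the ligase that joins the fragments, had 39.1, 47.7 and 52.9 CPM in the Enz-R libraries, against 33.7, 40.2 and 38.6 CPM in the parental libraries. Its groups overlapped, and the rise of 0.31 ± 0.098 (adjusted p = 0.0118) was lost without either of 2 libraries (adjusted p = 0.0568 without Enz-R replicate 3 and 0.0816 without parental replicate 1). DNA2, a nuclease for long flaps, was not called (-0.19 ± 0.11, adjusted p = 0.139), but was called lower without Enz-R replicate 3 (adjusted p = 0.0438). FEN1 shares 6.70% of its exon bases with TMEM258, which it faces and which stood at 0.82 ± 0.099. It shares 2% with FADS2 on the same strand, which stood at -0.95 ± 0.069, with 415 CPM in Enz-R and 804 CPM in parental cells. The part of these overlaps in the fall of FEN1 was not tested.

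Of the 4 genes of nucleotide supply, 3 were lower and the salvage kinase gene TK1 was higher. DCK, another salvage kinase gene but not a member, was lower, at 27.7 CPM in Enz-R and 42.0 CPM in parental cells (-0.60 ± 0.070). RRM1 (ENSG00000167325, chromosome 11, 4094707 to 4138876), the large subunit of ribonucleotide reductase, had 56.3, 65.5 and 60.8 CPM in the Enz-R libraries, against 125, 143 and 151 CPM in the parental libraries. The parental libraries all lay far above the Enz-R ones, with no overlap (-1.20 ± 0.078, adjusted p = 4.76e-09). RRM2, the small subunit made in S phase, had 55.5, 71.5 and 71.0 CPM in the Enz-R libraries, against 80.8, 105 and 97.4 CPM in the parental libraries. It fell less, though still without overlap (-0.52 ± 0.10, adjusted p = 0.000377). RRM1 took 54.1% ± 2.10 in Enz-R, against 65.4% ± 1.65 in parental libraries, as a share of the summed level per kb of the pair (SD, n = 3 each). TYMS, which makes thymidylate, had 14.5, 17.5 and 16.9 CPM in the Enz-R libraries, against 26.3, 31.7 and 31.6 CPM in the parental libraries. Enz-R libraries were again the lower ones (-0.87 ± 0.098, adjusted p = 1.58e-06); ENOSF1 on the other strand shares 39.1% of the exon bases of TYMS and stood at 0.12 ± 0.067. TK1, which salvages thymidine, had 194, 217 and 225 CPM in the Enz-R libraries, against 138, 159 and 157 CPM in the parental libraries. All Enz-R libraries were above the parental ones (0.49 ± 0.073, adjusted p = 2.97e-05), and the rise came to 0.18 (adjusted p = 0.0417) with GC content and length regressed out. Per kb of exon TK1 had the highest level of the 56 genes in Enz-R (114 CPM per kb) and PCNA the highest in parental cells (100.1 CPM per kb).

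The genes of the E cyclins, partners of CDK2 at the start of S phase, differed. CCNE2 (ENSG00000175305, chromosome 8, 94879770 to 94896678) had 5.76, 6.41 and 6.15 CPM in the Enz-R libraries, against 11.9, 14.2 and 13.6 CPM in the parental libraries. Enz-R libraries held less than any parental library (-1.12 ± 0.12, adjusted p = 9.67e-07). INTS8 on the other strand shares 37.0% of the exon bases of CCNE2 and stood at -0.18 ± 0.059. CCNE1 had 14.6, 13.7 and 13.4 CPM in the Enz-R libraries, against 14.3, 13.4 and 14.2 CPM in the parental libraries. Its groups overlapped and it was not called (-0.0057 ± 0.096, adjusted p = 0.962). CCNE2 took 20.3% ± 1.504 in Enz-R, against 35.5% ± 2.76 in parental libraries, as a share of the summed level per kb of the pair (SD, n = 3 each).

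Fork protection genes were led by CLSPN (ENSG00000092853, chromosome 1, 35720218 to 35769967), which encodes claspin, the adaptor by which ATR activates CHK1 at stalled forks. It had 6.12, 7.65 and 7.70 CPM in the Enz-R libraries, against 19.5, 26.7 and 24.99 CPM in the parental libraries. Its fall of 3.33-fold (-1.74 ± 0.13, adjusted p = 2.69e-08) came next to that of MCM2. TIMELESS (-0.43 ± 0.083, adjusted p = 0.000326), which travels with the fork, fell. TIPIN, its partner, was not called (-0.21 ± 0.100, adjusted p = 0.0728), but was called lower when some libraries were left out (adjusted p = 0.0395 without Enz-R replicate 1 and 0.0374 without parental replicate 1). UHRF1, which reads hemimethylated DNA behind the fork and recruits DNMT1, had 28.2, 28.6 and 32.1 CPM in the Enz-R libraries, against 45.1, 55.4 and 52.8 CPM in the parental libraries. Both groups were apart (-0.79 ± 0.084, adjusted p = 9.67e-07).

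**Figure D3:**
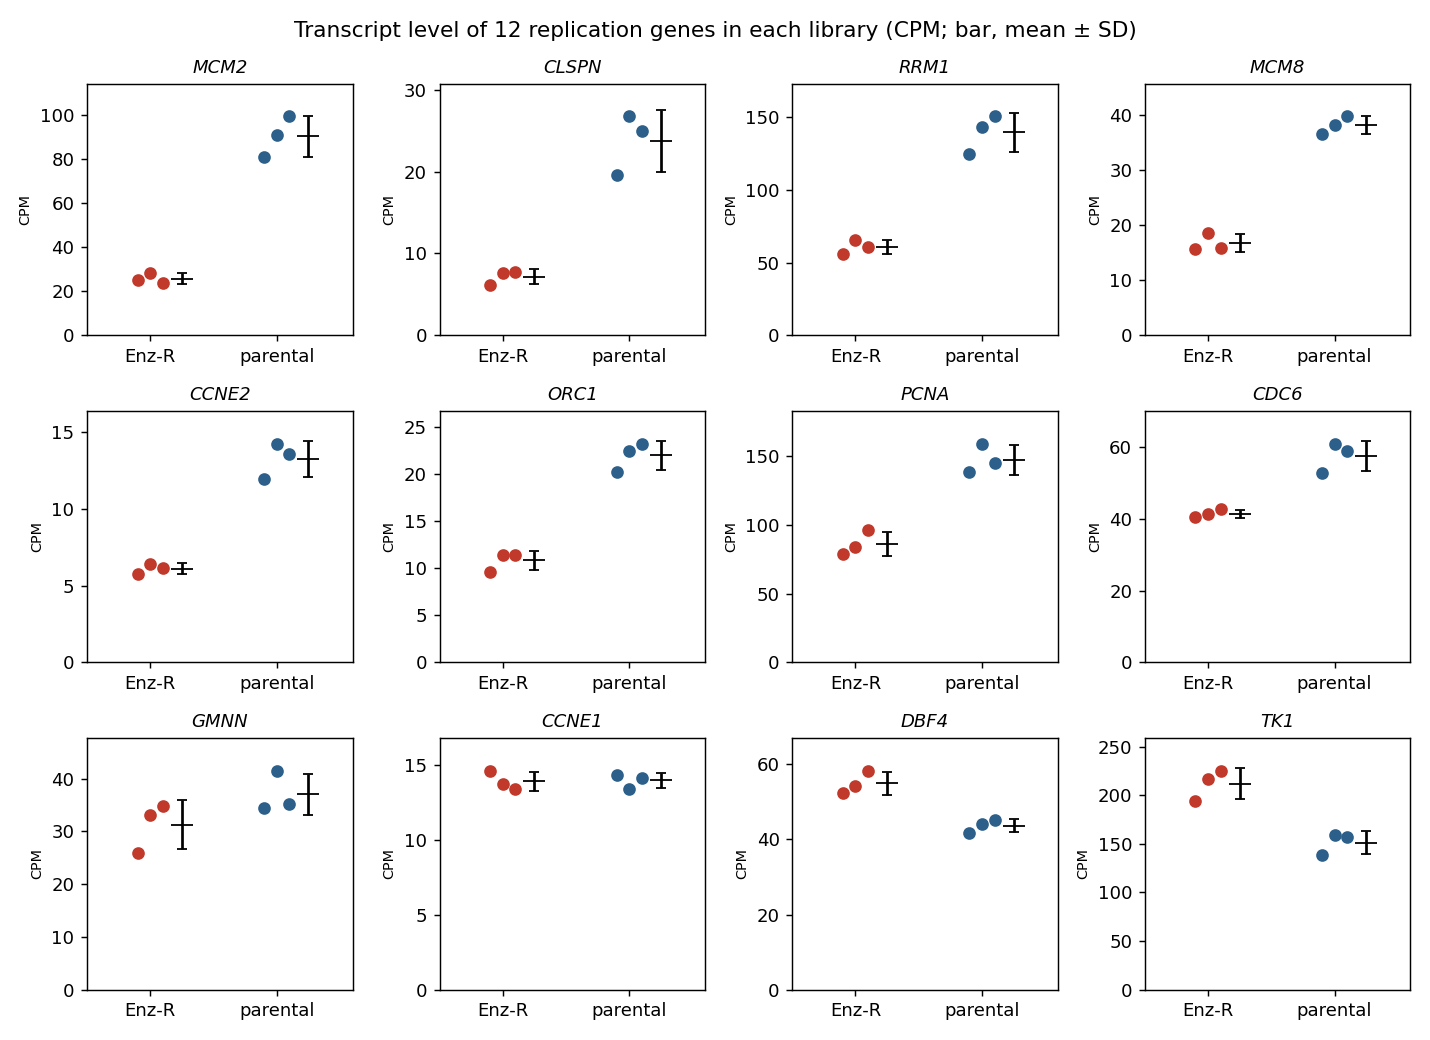
Level of 12 replication genes (y axis, CPM from 0) in each of the 3 Enz-R libraries (red, left) and 3 parental libraries (blue, right), with mean ± SD beside them. The 6 genes with at least 2-fold falls come first, from MCM2 to ORC1; CCNE1 and GMNN have overlapping groups, and DBF4 and TK1 are higher in Enz-R.

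The libraries numbered 1 tended to hold the lowest levels of their group. Enz-R replicate 1 had the lowest value of its group for 37 of the 56 genes and parental replicate 1 for 48, where over all genes tested these libraries were lowest for 34.2% and 34.9%. The summed level of the 56 genes was 2474, 2705 and 2715 CPM in the Enz-R libraries, against 3222, 3638 and 3574 CPM in the parental libraries, so the groups did not overlap. Without both libraries numbered 1, a choice made after the data were seen, 38 members were lower and 6 higher. The median coefficient of variation between replicates was 8.58% in Enz-R and 7.80% in parental libraries, against 9.48% and 7.50% over all genes tested.

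**Figure D4:**
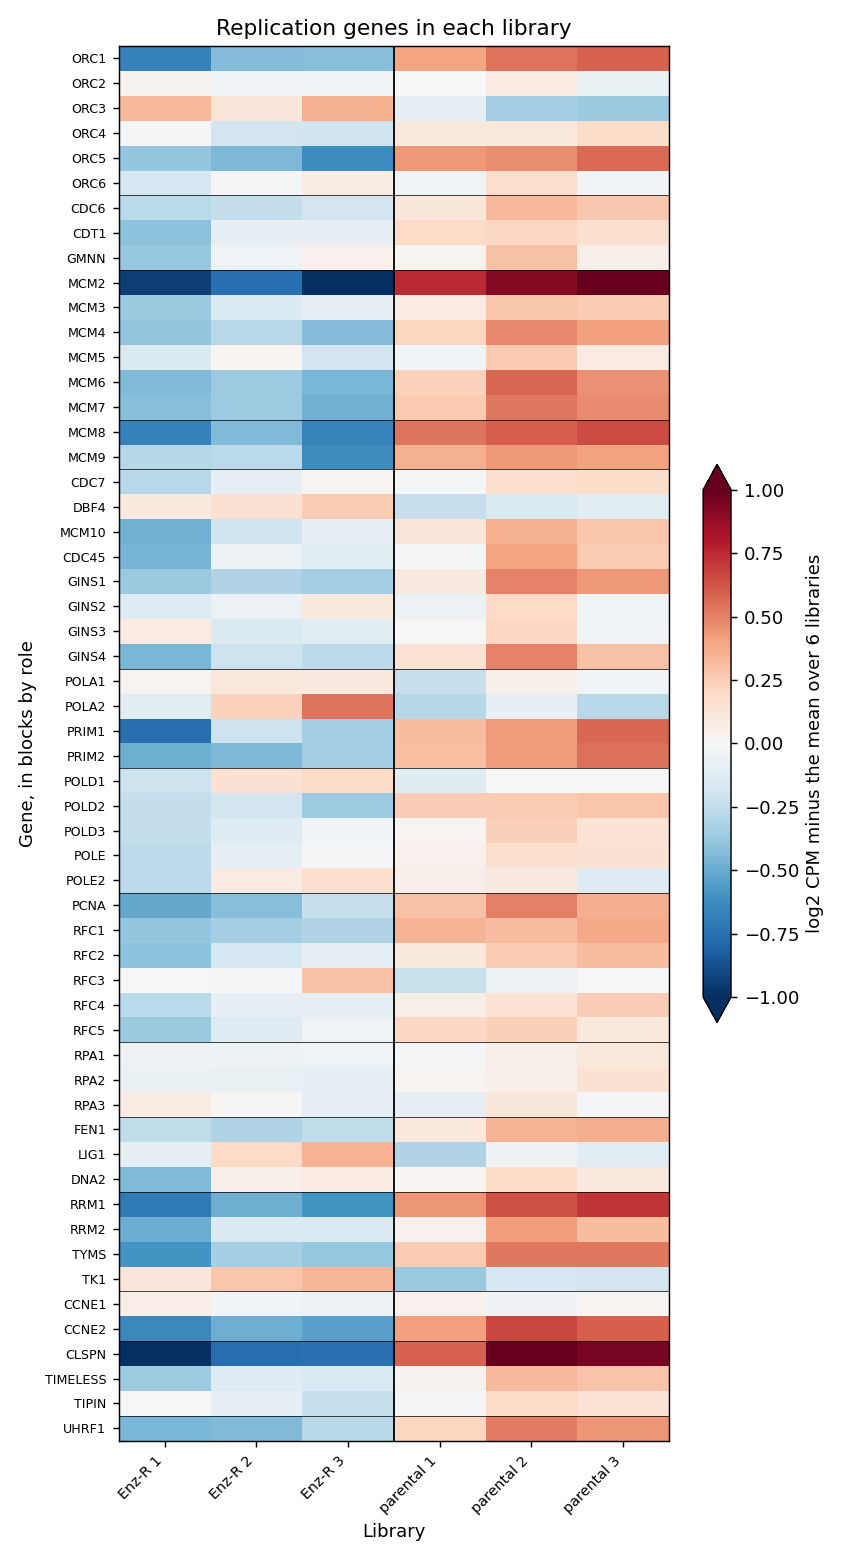
Level of each of the 56 replication genes (rows, in blocks by role) in the 3 Enz-R and 3 parental libraries (columns), as log2 CPM minus the mean of the gene over the 6 libraries; values beyond 1 in either direction take the end colour. Most rows are blue in Enz-R and red in parental libraries, with MCM2 and CLSPN the strongest, and parental 1 is the palest parental column.

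Members lie on 20 chromosomes. Of the 38 that were lower, 33 had a log2 fold change below the median of their 20 nearest tested protein-coding genes (15 for TYMS). In 14 the value was lower than that median by more than 0.5. Genes picked for a fall tend to lie below their neighbours, so no conclusion is drawn from these counts. The median of the neighbours was -0.16 over the set, and ran from -0.92 around PCNA to 0.54 around POLD1. For MCM2 and CLSPN it was -0.21 and -0.50, far above their own values. Annotated pseudogene copies exist for DBF4, POLD2, PCNA, RFC3, RFC5, RPA2, FEN1, RRM2 and TYMS, and how the counting divided reads between copies is not given, so their counts are less certain.

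Many replication genes start back to back with another gene. For 20 members a tested protein-coding gene starts within 1000 bases on the other strand. Among the 13 of these members that were lower, 6 partners were lower, 1 was higher and 6 were not called. Among all genes tested 32.3% were lower and 32.4% higher. In these 13 pairs the median log2 fold change was -0.77 for the members, which were picked for a fall, and -0.21 for the partners. Over all 20 pairs the median of the partners was -0.32. TPRA1, 44 bases from the start of MCM2, had 68.3 CPM in Enz-R and 64.7 CPM in parental cells (0.077 ± 0.059, adjusted p = 0.263). PRKDC, which encodes the catalytic subunit of DNA-dependent protein kinase and starts 2 bases from MCM4, fell with it (-0.89 ± 0.077, adjusted p = 9.10e-08). AFMID rose opposite TK1 (0.69 ± 0.062), whereas TMEM258 rose opposite FEN1, which fell. RARS2 (-0.37 ± 0.11) and SLC25A40 (-0.29 ± 0.071) were lower opposite ORC3 and DBF4, which rose.

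**Figure D5:**
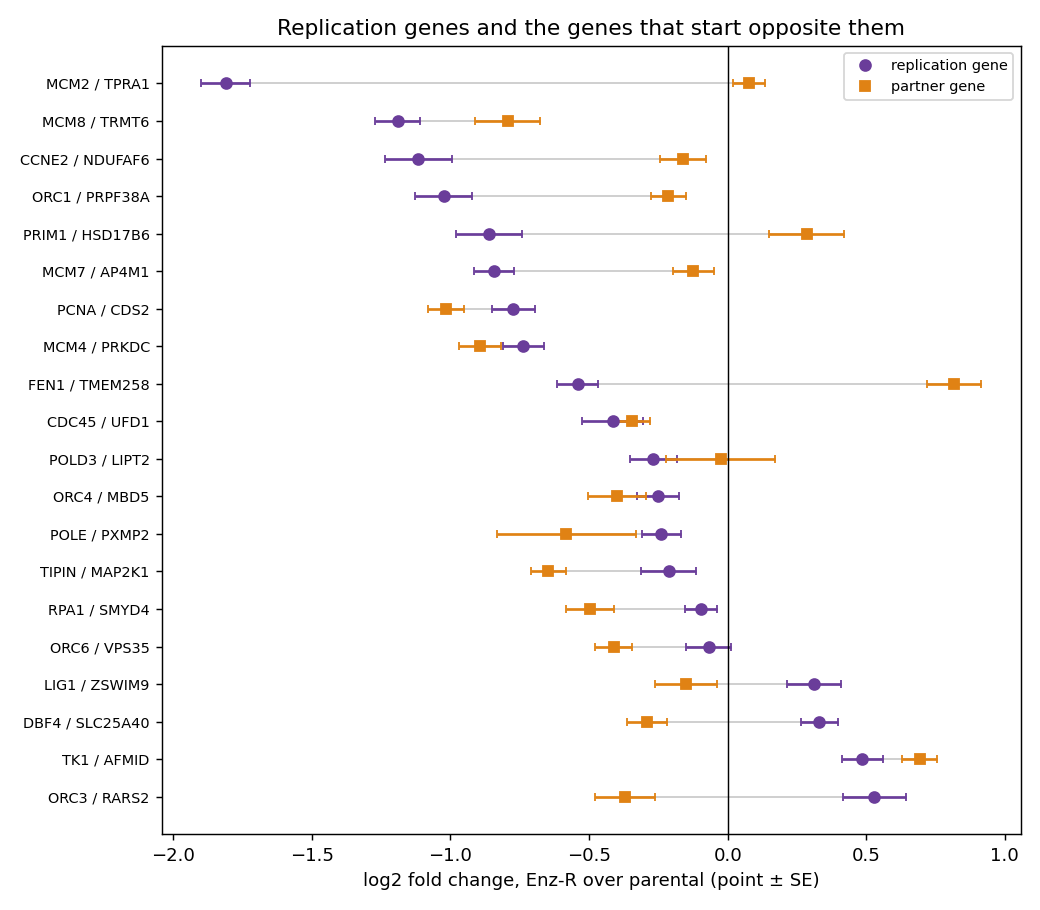
Log2 fold change of Enz-R over parental cells (x axis, point ± SE) for 20 replication genes (purple circles) and for the protein-coding gene that starts opposite each within 1000 bases (orange squares), ordered by the replication gene. MCM2 and its partner TPRA1 lie farthest apart, at -1.81 and 0.077, while MCM4 and PRKDC lie close, at -0.74 and -0.89.

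Other genes of the pathway were taken in 8 further lists. Of 104 genes, all tested, 55 were lower and 18 higher, with a median of -0.21. Beside these and each list below, 32.3% of all genes tested were lower and 32.4% higher. With GC content and length regressed out 42 of the 104 were lower and 27 higher, and with library totals 61 were lower and 12 higher. The difference between the share of the 104 that were lower and that of the 56 genes was not tested. Further origin and firing factors were 3 of 9 lower and 3 higher, close to the shares of all genes tested. TOPBP1 (-0.42 ± 0.062), which brings CDC45 to origins, RIF1 (-0.47 ± 0.065) and MCMBP (-0.17 ± 0.057) fell, while DONSON (0.88 ± 0.12), RECQL4 (0.52 ± 0.079) and DBF4B (0.42 ± 0.100) rose. Fork and polymerase factors were 9 of 18 lower and 5 higher. The largest changes were those of CHTF8 (-1.20 ± 0.086), HELB (-0.64 ± 0.12) and WDHD1 (-0.61 ± 0.087) on the lower side, and RNASEH2C (0.61 ± 0.072), CHTF18 (0.56 ± 0.088) and PCLAF (0.45 ± 0.19) on the higher. CHTF8 and CHTF18, which belong to the same alternative clamp loader, thus had opposite signs. MCMBP was not called without Enz-R replicate 2 (adjusted p = 0.0636), nor PCLAF when some libraries were left out (adjusted p = 0.358 without Enz-R replicate 3, 0.180 without parental replicate 1 and 0.151 without parental replicate 2).

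Further nucleotide genes were 12 of 22 lower and 2 higher. Serine hydroxymethyltransferase SHMT2, a source of folate-linked carbon units, was at 226 ± 15.0 CPM in Enz-R and 433 ± 10.7 CPM in parental cells (SD, n = 3 each; -0.94 ± 0.066), and CTPS1 (-0.72 ± 0.061) and GMPS (-0.69 ± 0.063), which make CTP and GMP, fell. DUT (0.37 ± 0.073), which keeps dUTP low, and the purine enzyme ATIC (0.37 ± 0.061) rose. Chromatin assembly genes were 5 of 9 lower and 2 higher, with both FACT subunits, SUPT16H (-0.59 ± 0.059) and SSRP1 (-0.47 ± 0.060), and the histone chaperone NASP (-0.43 ± 0.072) lower, and SLBP (0.24 ± 0.069) and ASF1A (0.23 ± 0.077) higher. ASF1A was not called without parental replicate 1 (adjusted p = 0.0711).

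Of 13 E2F and RB family genes, 10 were lower and 1 higher. Among the lower were the RB family genes RB1 (-0.24 ± 0.072), RBL1 (-0.52 ± 0.076) and RBL2 (-0.44 ± 0.065). E2F1, an activator of S phase genes, had 45.4, 49.4 and 51.1 CPM in the Enz-R libraries, against 58.3, 68.4 and 65.1 CPM in the parental libraries. Its values were below the parental range (-0.40 ± 0.074, adjusted p = 0.000241). E2F7 (-1.21 ± 0.11), a repressor, E2F2 (-0.68 ± 0.15) and E2F3 (-0.53 ± 0.070) fell and E2F5 (0.31 ± 0.11) rose. Cyclins, kinases and inhibitors of G1 and S phase were 6 of 15 lower and 2 higher (40% lower, against 32.3% of all genes tested). CDK4 (-1.04 ± 0.10), CCNA2 (-0.63 ± 0.076) and CDC25A (-0.37 ± 0.087) fell. The 2 that rose were the INK4 inhibitor genes CDKN2A and CDKN2D (0.67 ± 0.11). CDKN2A was at 21.7 ± 1.03 CPM in Enz-R and 7.08 ± 0.979 CPM in parental cells (1.63 ± 0.11, adjusted p = 1.03e-08). Of the other inhibitor genes, CDKN1A was lower, at 122 CPM in Enz-R and 153 CPM in parental cells (-0.33 ± 0.068). CDKN1B, CDKN1C and the INK4 genes CDKN2B and CDKN2C were not called. The checkpoint genes were 6 of 9 lower, among them WEE1 (-0.43 ± 0.092), RAD1 (-0.27 ± 0.089) and RAD17 (-0.24 ± 0.066), and RAD9A (0.88 ± 0.093), a partner of RAD1 in a clamp, was higher. Genes of licensing turnover were 4 of 9 lower and 2 higher, with FBXO5 (-0.74 ± 0.098), SKP2 (-0.56 ± 0.063) and DDB1 (-0.47 ± 0.057) lower, and CUL4B (0.67 ± 0.062) and COPS5 (0.19 ± 0.065) higher. Some of these calls were lost when a library was left out: E2F5 (adjusted p = 0.145 without Enz-R replicate 2, 0.0597 without parental replicate 1 and 0.123 without parental replicate 2), RAD1 (adjusted p = 0.0773 without Enz-R replicate 2, 0.0548 without parental replicate 2 and 0.0681 without parental replicate 3) and COPS5 (adjusted p = 0.0932 without parental replicate 1 and 0.0550 without parental replicate 2). With GC content and length regressed out, WEE1, RAD1 and RAD17, and MCMBP and RIF1 of the origin list, were no longer called.

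Mitosis markers, which follow the share of cells in G2 and M phase, were 13 of 20 lower and 4 higher, with a median of -0.29. MKI67, the proliferation marker, was at 98.1 ± 7.67 CPM in Enz-R and 167 ± 13.8 CPM in parental cells (-0.77 ± 0.075), and HMMR (-0.73 ± 0.068) and TPX2 (-0.69 ± 0.058) fell. CDK1, at 307 ± 45.2 CPM in Enz-R and 161 ± 9.07 CPM in parental cells (0.93 ± 0.088), AURKB (0.46 ± 0.087) and UBE2C (0.38 ± 0.068) rose. The 20 markers summed to 1589.8, 1634 and 1726 CPM in the Enz-R libraries, against 1706, 1886 and 1843 CPM in the parental libraries. The groups overlapped in this sum, and CDK1, which rose, had the highest level of the 20 in Enz-R. The ratio of summed levels, Enz-R to parental, was 0.911 for the markers, 0.757 for the 56 replication genes and 0.592 for the MCM2-7 genes. By calls, 65% of the markers were lower, against 67.9% of the 56 replication genes. The part of cell cycle distribution in the falls of the replication genes was not tested.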

How the data were processed

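Gene counts of 6 libraries were used. Paired reads of 150 bp came from purified mRNA, per the labels' protocols. The submitters' processing notes name HISAT2 and GRCh38. How reads were counted, on which annotation and with which strand option, is not given in the sources used here. The deposited table holds raw counts as whole numbers, which the authors made before any scaling. Of 59565 loci, 889 have no Ensembl identifier. Symbols came from a list of gene names, and positions, exon lengths and transcripts from GENCODE 29.

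The comparison of Enz-R with parental libraries used edgeR 4.0.16 under R 4.3.3, with filterByExpr, TMM, glmQLFit and glmQLFTest and no covariate, over 19029 genes, with Benjamini-Hochberg adjustment and a threshold of 0.05. Each SE is the absolute log2 change divided by the root of F. The common biological coefficient of variation was 7.2%. Between replicates the chi-square per degree of freedom was 3.91 to 8.98, so no library repeats another. Levels between genes are CPM per kb of merged exons. Members and lists were chosen with earlier results of these data known. Values in every library are given for members with a called 2-fold change and for 12 fixed members. They are also given for the largest called change of each role in each direction. Of other lists, up to 3 called genes in each direction with at least 5 CPM are named. Some further genes are named beside them, and their calls under other settings are not given. Other settings tried were a block for replicate number, left-out libraries, DESeq2 1.42.0 and its size factors, library totals, other filters, limma-voom (limma 3.58.1), mitochondrial genes left out, and GC content and transcript length (known for 96.3% of genes) regressed out by splines. On simulated data with 18741 genes the test found 65.7% of the genes changed 1.5-fold, 88.1% of those changed 2-fold and 98.5% of those changed 4-fold. Of 18544 genes left unchanged it called 12. In that simulation 67, 67 and 66 genes were changed, and all genes had the same biological coefficient of variation. In the real comparison 32.3% of genes were called lower and 32.4% higher, so these shares need not hold for it. Figures used matplotlib 3.10.9.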

Additional observations from a re-analysis of the deposited data

How the results depend on the processing

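The median log2 fold change of the members ran from -0.482 to -0.300 over all 16 alternatives. Of the 38 lower members 31 and of the 5 higher members 3 (ORC3, DBF4 and TK1) stayed called in the same direction under each of them. Lower members that lost the call under some alternative were ORC4, GMNN, MCM5, CDC7, POLD3, POLE and RPA2. The count of lower members was 33 to 41. The count of higher members was 3 to 7 with 1 library left out, 3 with library totals and 8 with GC content and length regressed out; the cause was not tested. The samples share only a replicate number: deviations of same-numbered libraries correlated at 0.0493, -0.00808 and 0.0112, and not every library correlated best with its own number. With the replicate number as a block, 38 members were lower and 6 higher, and the other replication lists had 55 lower and 17 higher. Members near 0 changed sign: with 1 library left out, log2 fold changes ran from -0.057 to 0.016 for ORC2, -0.12 to 0.00035 for ORC6, -0.12 to 0.014 for GINS2, -0.097 to 0.11 for POLE2, -0.061 to 0.045 for RPA3, -0.043 to 0.025 for CCNE1; without both libraries numbered 1, POLE2 was at 0.14; with at least 50 counts in 3 libraries values were ORC2 0.020, POLE2 0.017, RPA3 0.030, CCNE1 0.028; with GC content and length regressed out values were ORC2 0.16, ORC4 0.015, POLD1 -0.059, RPA1 0.054; with library totals values were POLD1 -0.00012; with limma-voom values were RPA3 0.0014. Apart from ORC4, none of these was called as reported. The length of the longest transcript, chosen after the data were seen in place of merged exons, turned no difference in a named share. At these depths and this number of libraries, part of the 1.5-fold changes was missed in simulated data. Few genes were changed there and depth was not varied, so the part missed in the real data may differ.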
